A study of Mus musculus with 74 samples.

Results

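A set of 45 mouse imprinted genes was examined for trimethylation of lysine 9 on histone H3 (H3K9me3), out of 55413 genes annotated by GENCODE M21 on the 19 autosomes, X and Y (mm10). The genes were chosen by name and not by a threshold on their H3K9me3, but with earlier results of these data known. They fall into 19 imprinted domains, most of them clusters of neighbouring genes, on 10 chromosomes, and 16 of the 45 lie on chromosome 7. All 45 names were found in the annotation. In 18 genes, which belong to 16 domains, a transcript starts at a germline differentially methylated region (DMR) that carries DNA methylation from the oocyte. In 3 genes, H19, Meg3 and Rasgrf1, a germline DMR methylated in sperm lies upstream. The other 24 genes are imprinted neighbours.

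An imprinted gene is expressed mainly from the copy of a single parent. The difference is set in the germ cells by DNA methylation at the DMR, which survives the loss of methylation that follows fertilization. On the methylated copy the zinc finger proteins ZFP57 and ZFP445 bind and recruit TRIM28 and the histone methyltransferase SETDB1, which places H3K9me3 there, while the other copy of the DMR is usually active chromatin. A somatic donor nucleus brings imprints of both parents into a cloned embryo. The peak lists used here do not separate the parental alleles, so a peak at a DMR cannot be assigned to a copy.

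H3K9me3 was profiled by ultra-low-input native ChIP-seq, in which chromatin is cut with micrococcal nuclease and precipitated without crosslinking, in 41 precipitated libraries beside 33 inputs. Donor cumulus cells (CCs), which surround the oocyte, and recipient oocytes came from B6D2F1 females (also written BDF1 in the labels), the F1 of C57BL/6j mothers and DBA/2 fathers. For somatic cell nuclear transfer (SCNT), a CC nucleus was injected into an enucleated oocyte and activated with SrCl2 and cytochalasin B, and embryos were collected 6 and 14 h post activation (hpa), at the 2-cell, 4-cell, 8-cell and morula stages, and from blastocysts as inner cell mass (ICM) or trophectoderm (TE). Fertilized zygotes at pronuclear stage 5 (PN5) came from C57BL/6 females mated with C57BL/6 males and, by the study's methods, from an earlier publication, so type of embryo, strain, sex composition and source of the data cannot be told apart in any comparison with PN5. All CC and SCNT nuclei were female by origin.

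The libraries of each group were pooled before peaks were called. Each group held 2 (ICM, TE, PN5) to 7 (8-cell) precipitated libraries. Each stage therefore gave a single value with no replicate error, and no test between stages was possible. The 10 lists held 120195 (2-cell) to 200342 (morula) peaks and covered 134 Mb (PN5) to 255 Mb (CC). Coverage below is the percentage of a stretch that lay under merged peaks. A gene was called marked where, at any of its annotated transcript starts, a peak covered at least 50% of the 1 kb on either side or had at least 50% of its own length there, the rule that the study used for promoters. A start without a peak had no H3K9me3 detectable above the caller's threshold, which does not show that the mark was absent.

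Reference sequence under the peaks is shown for 9 maternally methylated DMRs with different patterns over the lists. Each line gives 150 bases, 5′ to 3′ on the strand of the gene, chosen outside annotated UTRs within 1 kb of the start as the bases that peaks covered in most lists. Capitals mark TGCCGC or, on the other strand, GCGGCA, the core of the sequence that ZFP57 reads when its CpG is methylated. At Peg3, Mest, Gnas, Peg10, Airn, Kcnq1ot1 and Mcts2 the stretch begins or ends exactly on such a match. The placing of a stretch may therefore depend on the motif, and the capitals do not measure how often it lies under peaks. Peg3 (chr7:6730062-6730211, minus strand, intron), Mest (chr6:30737690-30737839, plus strand, intron) and Snrpn (chr7:60004485-60004634, minus strand, intron) were wholly under peaks in all 10 lists.
Peg3: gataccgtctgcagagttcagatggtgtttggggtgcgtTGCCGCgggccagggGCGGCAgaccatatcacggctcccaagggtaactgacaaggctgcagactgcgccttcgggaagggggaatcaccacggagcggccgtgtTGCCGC
Mest: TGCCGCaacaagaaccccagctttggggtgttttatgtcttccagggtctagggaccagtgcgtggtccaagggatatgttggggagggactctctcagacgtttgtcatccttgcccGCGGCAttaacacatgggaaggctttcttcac
Snrpn: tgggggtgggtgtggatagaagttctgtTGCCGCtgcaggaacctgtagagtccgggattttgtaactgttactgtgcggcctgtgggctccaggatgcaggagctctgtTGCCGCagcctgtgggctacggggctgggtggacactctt
The stretches at Gnas (chr2:174297485-174297634, plus strand, intron), Peg10 (chr6:4747780-4747929, plus strand, intron), Peg13 (chr15:72810249-72810398, minus strand, in its exon and in an intron of Trappc9) and Airn (chr17:12742235-12742384, plus strand, in an intron of Airn and of Igf2r) were wholly under peaks in 9 lists. At Peg10 and Peg13 the list without a peak was PN5.
Gnas: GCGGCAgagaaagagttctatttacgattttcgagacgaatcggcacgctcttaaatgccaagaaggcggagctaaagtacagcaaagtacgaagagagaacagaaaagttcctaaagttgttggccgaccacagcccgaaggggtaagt
Peg10: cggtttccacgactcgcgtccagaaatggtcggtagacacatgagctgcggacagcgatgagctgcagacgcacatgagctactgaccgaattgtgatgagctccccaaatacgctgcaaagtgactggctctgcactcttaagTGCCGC
Peg13: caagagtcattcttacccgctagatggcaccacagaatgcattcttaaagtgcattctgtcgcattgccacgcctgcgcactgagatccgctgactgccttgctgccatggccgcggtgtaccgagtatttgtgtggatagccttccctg
Airn: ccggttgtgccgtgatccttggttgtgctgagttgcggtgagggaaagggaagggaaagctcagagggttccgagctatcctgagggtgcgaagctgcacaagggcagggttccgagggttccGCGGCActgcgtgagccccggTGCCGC
At Kcnq1ot1 (chr7:143295669-143295818, minus strand, in its exon and in an intron of Kcnq1) the stretch was wholly covered in 7 lists and at Mcts2 (chr2:152686870-152687019, plus strand, upstream of the start in an intron of H13) in 5, and neither gene had a peak at its start in CCs.
Kcnq1ot1: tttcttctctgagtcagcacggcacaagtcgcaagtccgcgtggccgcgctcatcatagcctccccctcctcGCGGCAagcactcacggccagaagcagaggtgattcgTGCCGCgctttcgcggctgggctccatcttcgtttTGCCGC
Mcts2: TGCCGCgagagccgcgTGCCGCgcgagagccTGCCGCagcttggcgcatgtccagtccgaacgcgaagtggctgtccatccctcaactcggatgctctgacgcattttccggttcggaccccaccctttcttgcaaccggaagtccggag

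Imprinted genes starting at a maternally methylated DMR were marked in nearly every list, and in morulae, ICM and TE all 18 of them were. The number of the 18 that were marked was 13 in CCs, 16 at 6 hpa, 17 at 14 hpa, 17 in 2-cell, 16 in 4-cell and 17 in 8-cell embryos, 18 in morulae, ICM and TE, and 15 in PN5. The exact 95% interval, which covers counting error over genes only, was 46.5% to 90.3% in CCs, 81.5% to 100% in morulae, ICM and TE, and 58.6% to 96.4% in PN5. The other 27 genes were marked less widely, with 10 in CCs, 18 at 6 hpa, 12 at 14 hpa, 13, 12 and 7 in 2-cell, 4-cell and 8-cell embryos, 6 in morulae, 7 in ICM, 10 in TE and 9 in PN5. Blcap, Commd1 and Herc3, counted among these 27, have a start within 2 kb of a DMR start and so lie under the same peaks. Without those 3, the counts of 24 were 8, 15, 9, 10, 9, 4, 3, 4, 7 and 6 in the same order. These 24 still hold H19, whose start shared a peak with the window set for its upstream DMR in some lists (below).

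Counted together, 23 of the 45 genes were marked in CCs, where 17% of all genes and 12.4% of genes with a CpG-dense start were. At 6 hpa 34 were marked, in the list with the highest background, 30.3% of all genes and 50.1% of CpG-dense genes. At 14 hpa it was 29 (17.7% and 14.2%), in 2-cell embryos 30 (14.1% and 10.9%), in 4-cell embryos 28 (14.4% and 6.98%) and in 8-cell embryos 24 (16.6% and 6.3%). In morulae 24 were marked (14.6% and 5.09%), in ICM 25 (11.8% and 6.58%), in TE 28 (12.2% and 7.27%) and in PN5 24 (15.5% and 20.8%). A start was taken as CpG-dense if a run of 500 bases in its window reached 55% GC and an observed-to-expected CpG count of 0.75, which 32 of the 45 genes and 14331 of all genes met at a start. At 6 hpa 66.7% of the 27 genes without a DMR at a start were marked, against 30.3% of all and 50.1% of CpG-dense genes. In morulae the share was 22.2%, against 14.6% and 5.09%. The exact interval at 6 hpa (46% to 83.5%) held 50.1% and not 30.3%. The interval in morulae (8.62% to 42.3%) held 14.6% and not 5.09%. The share was 37% in CCs, 44.4% at 14 hpa, and 48.1%, 44.4% and 25.9% in 2-cell, 4-cell and 8-cell embryos. It was 25.9% in ICM, 37% in TE and 33.3% in PN5. These 27 include Blcap, Commd1 and Herc3, which lie under DMR peaks. Without those 3 the share in morulae was 12.5%, with an interval (2.66% to 32.4%) that held both 14.6% and 5.09%. At 6 hpa it was 62.5%, and the interval (40.6% to 81.2%) again held 50.1% and not 30.3%.

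**Figure D1:**
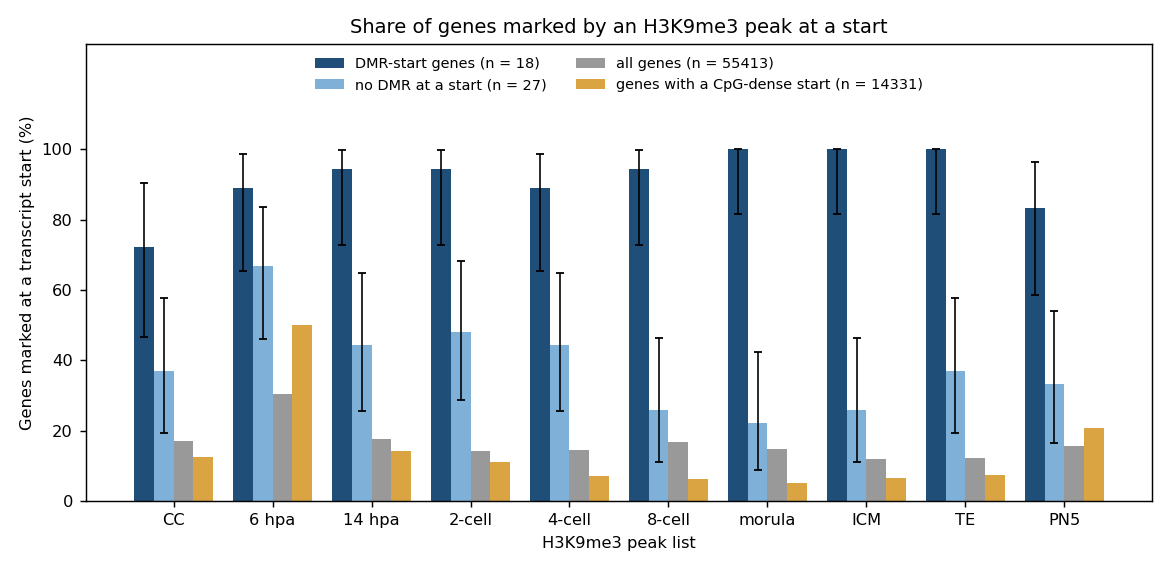
Percentage of genes marked by an H3K9me3 peak at a transcript start (y axis) in each peak list (x axis) for 18 imprinted genes starting at a maternally methylated DMR, 27 other imprinted genes, all genes and all genes with a CpG-dense start; error bars are exact 95% binomial intervals over genes. The dark bars stand between 72.2% (CC) and 100% (morula, ICM, TE), and the background bars stay at 30.3% or below except for CpG-dense genes at 6 hpa (50.1%).

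Chromosome 7 and the number of annotated starts also move this background. Genes of chromosome 7 were marked more often than other genes, from 18.5% in TE to 41.6% at 6 hpa, and the 29 imprinted genes on other chromosomes were marked in 15 cases in CCs, 21 at 6 hpa, 17 in morulae and 20 in TE. The 16 imprinted genes on chromosome 7 were marked to 50% in CCs, 81.2% at 6 hpa, 43.8% in morulae and 50% in TE. In the same order, 33.4%, 41.6%, 23.9% and 18.5% of all chromosome 7 genes were marked. Shares of all genes off chromosome 7 were not computed. The imprinted genes have a median of 5 annotated starts against 1 over all genes. Among all genes with at least 5 starts, 13.4% were marked in CCs, 45.3% at 6 hpa, 8.77% in morulae and 28.7% in PN5. Of the 45 genes, 11 were marked in all 10 lists (24.4%), against 1.31% of all genes, and the median number of lists was 8 against 1.

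The 9 DMR genes marked in every list were Peg3, Usp29, Mest, Inpp5f, Grb10, Zrsr1, Gnas, Nnat and Impact. Values below are for the leading start of each gene, the start with the highest mean coverage over the lists, a choice made from the same values. Peg3, a zinc finger protein, and Usp29, a ubiquitin protease transcribed the other way from the same DMR, share their peaks. At Peg3 the window was covered to 90.8% in CCs, 84.7% at 6 hpa, 100% at 14 hpa, 86.8%, 64% and 83.2% in 2-cell, 4-cell and 8-cell embryos, 76.6% in morulae, 90.5% in ICM, 87.1% in TE and 66.9% in PN5. At Usp29 the lowest value was 56.1% (4-cell) and the highest 97.7% (14 hpa). No list left this DMR with less than 50% of either window covered.

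Mest, an enzyme of the hydrolase fold, showed 100% in CCs, 70.2% at 6 hpa, 100% at 14 hpa and in 2-cell and 4-cell embryos, 95.2% in 8-cell embryos, 60.5% in morulae, 70% in ICM, 100% in TE and 58.4% in PN5. Among its other annotated starts, a pair within a few bases of the leading start was covered alike to within 1 percentage point, and the rest were at 57.6% or below in each list, the highest being chr6:30740782 in ICM. For Grb10, an adaptor that restrains insulin and IGF signalling, coverage was 78.3% in CCs, 87.2% at 6 hpa, 100% at 14 hpa and 2-cell, 90.9% at 4-cell, 44.6% at 8-cell, 100% in morulae, ICM and TE, and 53.7% in PN5. A CpG-dense start further upstream (chr11:12037401) had a peak at 6 hpa only, with 82.8% of the window covered. Within these 2 genes the DMR start and other starts therefore had different coverage in the same list.

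Gnas encodes the stimulatory G protein alpha subunit and has several promoters. The leading start (chr2:174297859) was covered to 100% in CCs, 80.1% at 6 hpa, 100% at 14 hpa and the 2-cell and 4-cell stages, 70.2% at 8-cell, 100% in morulae, ICM and TE, and 29.3% in PN5. The start at chr2:174328023, close to the exon 1A promoter, another maternally methylated site of this gene, had 0 in CCs, 86.4% at 6 hpa, 79.5% at 14 hpa, 85% in 2-cell embryos, 0 in each list from the 4-cell stage to TE and 100% in PN5. The first start of the gene (chr2:174284320) was covered to 34.4%, 34.5% and 84.5% at 6 hpa, 14 hpa and the 2-cell stage and not covered in the other 7 lists. The 3 starts of Gnas thus had 3 different orders over the stages.

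Zrsr1, a splicing factor-like retrogene inside Commd1, had 31.6% in CCs, 51.3% at 6 hpa, 41.6% at 14 hpa, 94.3%, 100% and 98.5% in 2-cell, 4-cell and 8-cell embryos, 100% in morulae, ICM and TE, and 72% in PN5. Nnat, a small membrane proteolipid inside Blcap, had 18.5% in CCs, 49.5% at 6 hpa, 40.6% at 14 hpa, 56.2%, 100% and 63.2% in cleavage embryos, 71.2% in morulae, 71.8% in ICM, 100% in TE and 7.2% in PN5. At both loci CCs and PN5 lay below most SCNT stages. Impact, a regulator of translation, was between 54.6% (4-cell) and 68.1% (PN5) in CCs, PN5 and each SCNT list up to the morula, where it was 64.2%, and stood at 96.5% in ICM and 100% in TE. The peak at Impact was 1823 bp wide in morulae, 8174 bp in ICM and 9450 bp in TE.

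Inpp5f, an inositol phosphatase gene with an internal imprinted transcript, had no coverage at the internal DMR start (chr7:128687546) in CCs. The value was 23.2% at 6 hpa, 54.1% at 14 hpa, 79%, 71.2% and 60.5% in 2-cell, 4-cell and 8-cell embryos, 100% in morulae, 94.6% in ICM, 100% in TE and 78.3% in PN5. In CCs the gene was marked at another of its starts (chr7:128667691), covered to 16.7%. Its CpG-dense first start (chr7:128611328) was covered to at most 57.3%, in TE.

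Kcnq1ot1, Nap1l5, Plagl1, Airn and Mcts2 had little or no coverage in CCs and were covered in SCNT embryos. Kcnq1ot1 is the antisense noncoding RNA that silences its cluster in cis, and its window was at 0 in CCs, 62.6% at 6 hpa, 41.6% at 14 hpa, 73.6% and 93.1% in 2-cell and 4-cell embryos, 2.75% in 8-cell embryos, 100% in morulae and ICM, 93% in TE and 47.9% in PN5. The 8-cell value stood apart from its neighbours on both sides. Nap1l5, a retrogene of the nucleosome assembly family inside Herc3, had 0 in CCs, 42.3% at 6 hpa, 48.6% at 14 hpa, 43.6%, 49.2% and 37.9% in cleavage embryos, 95.3% in morulae, 75.2% in ICM, 89.4% in TE and 7.4% in PN5. Plagl1, a zinc finger transcription factor, had 0 in CCs, 41.2% at 6 hpa, 82.8% at 14 hpa, 100%, 78.4% and 86.9% in cleavage embryos, 100% in morulae, ICM and TE, and 37.5% in PN5.

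Airn, the noncoding RNA that silences Igf2r, had 5.9% in CCs, 28% at 6 hpa, 33.8% at 14 hpa, 100%, 92.2% and 57.3% in cleavage embryos, 100% in morulae, 97.4% in ICM, 100% in TE and 89.3% in PN5. Mcts2, a translation factor retrogene inside H13, was the latest, with 0 in CCs, at 6 hpa, at 14 hpa and in 2-cell embryos and 2.65% in 4-cell embryos. It then had 96.7% in 8-cell embryos, 86.3% in morulae, 79.3% in ICM and 100% in TE, and 84.1% in PN5. The 14 hpa SCNT embryo and PN5 are both late one-cell stages, so Mcts2 was unmarked in the first and marked in the second.

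**Figure D2:**
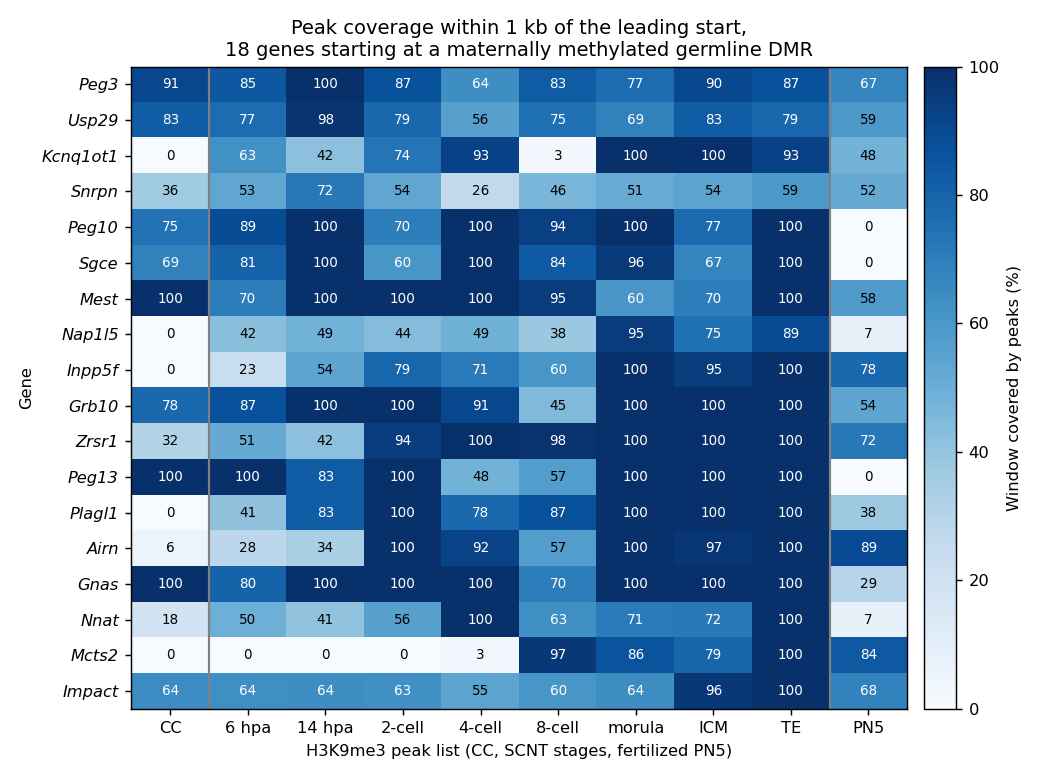
Percentage of the 1 kb either side of the leading transcript start covered by H3K9me3 peaks (colour and printed number, rounded) for 18 imprinted genes that start at a maternally methylated DMR (rows) in CCs, 8 SCNT lists and PN5 (columns, parted by grey lines). The morula, ICM and TE columns are dark throughout, with no start below 51%, while 5 genes are at 0 in CCs and 3 in PN5.

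Peg10, a retrotransposon-derived gene needed for the placenta, and Sgce, the epsilon sarcoglycan, start back to back at a DMR that was marked in CCs and each SCNT list and had no peak in PN5. At Peg10 the window was covered to 74.6% in CCs, 88.8% at 6 hpa, 100% at 14 hpa, 70.3%, 100% and 93.5% in 2-cell, 4-cell and 8-cell embryos, 100% in morulae, 77.4% in ICM, 100% in TE and 0 in PN5, and Sgce ranged from 60.3% to 100% in the first 9 lists. Peg13, a noncoding RNA inside Trappc9, had 100% in CCs, 99.6% at 6 hpa, 83.2% at 14 hpa, 100%, 48% and 57.3% in cleavage embryos, 100% in morulae, ICM and TE, and 0 in PN5. Snrpn, a splicing protein gene in the cluster of Prader-Willi and Angelman syndromes, was less covered at its DMR start but in each list, with 36.4% in CCs, 53.4% at 6 hpa, 72.1% at 14 hpa, 53.5%, 26.2% and 46.2% in cleavage embryos, 51% in morulae, 54.5% in ICM, 59.4% in TE and 51.5% in PN5. By the rule for a marked gene Snrpn was unmarked in 4-cell embryos alone.

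Over the 16 DMR domains, taking a single gene for each shared DMR, the median coverage of the leading start was 34% in CCs, 58% at 6 hpa, 67.9% at 14 hpa, 82.9%, 84.6% and 61.8% in 2-cell, 4-cell and 8-cell embryos, 100% in morulae, 95.5% in ICM, 100% in TE and 52.6% in PN5. At least 50% of the window was covered at 7 starts in CCs, 10 at 6 hpa, 10 at 14 hpa, 14 in 2-cell, 12 in 4-cell and 12 in 8-cell embryos, all 16 in morulae, ICM and TE, and 9 in PN5. The 3 latest SCNT lists were thus the ones in which no DMR start fell short. In a profile in 100-bp bins, the mean coverage within 500 bp of these starts was 45.4% in CCs, 63% at 6 hpa, 90.2% in morulae, 98% in TE and 57.4% in PN5. For 14299 other genes with a CpG-dense start, whose leading start was picked in the same way, it was 5.44%, 22.3%, 2.04%, 3.16% and 10.5%. Between 5 and 10 kb from the start the DMRs were at 0.955% (6 hpa) to 6.35% (PN5) and the other genes at 3.13% to 5.44%, so the difference lay close to the start.

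**Figure D3:**
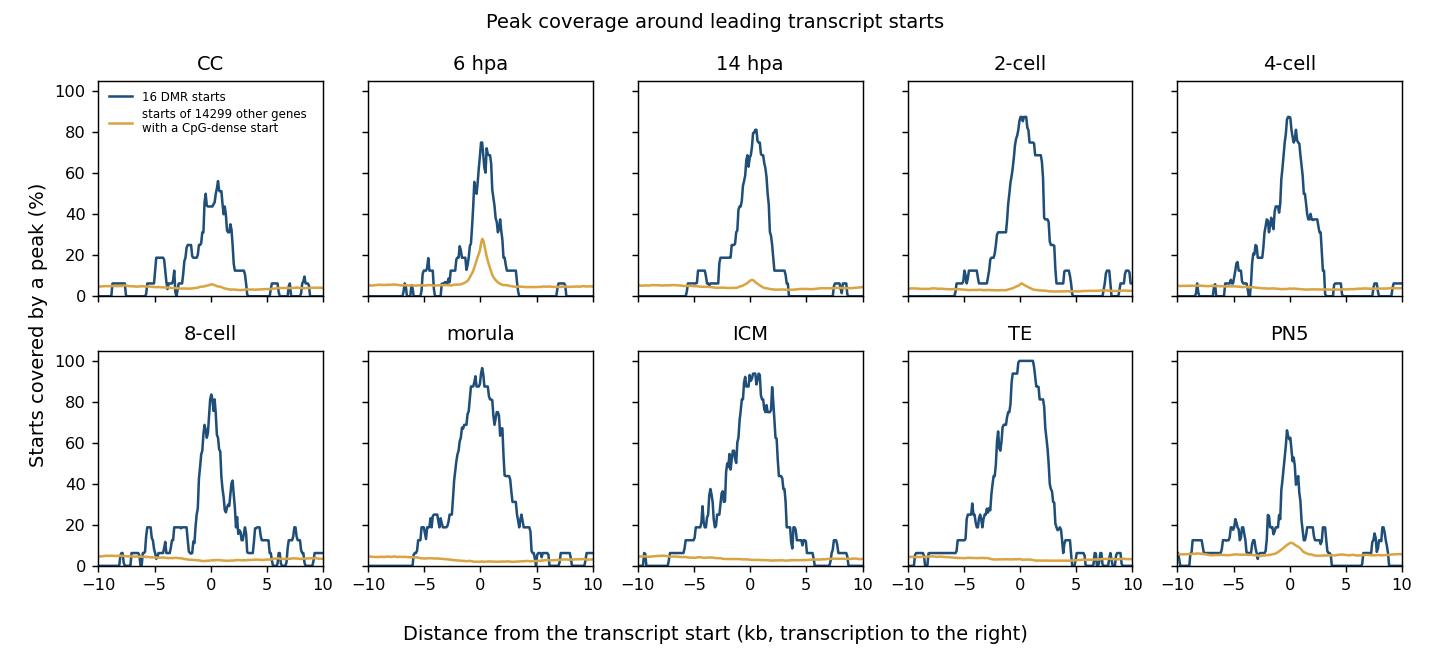
Percentage of leading transcript starts covered by a peak (y axis) at each distance from the start (x axis, kb, transcription to the right) for 16 maternally methylated DMRs and for 14299 other genes with a CpG-dense start, in 10 lists. The DMR curve is a local peak at the start in each list, with a mean within 500 bp between 45.4% (CC) and 98% (TE), and the other genes have a visible peak at 6 hpa (22.3%).

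The peaks at these DMRs were moderate in fold enrichment and broad. At each leading start the peak with the largest overlap with the window was taken, a choice that favours wide peaks. Widths of peaks picked in the same way at other genes were not compared. The fold over input that the caller gave had a median of 2.93 in CCs (11 peaks), 3.07 at 6 hpa (15), 3.33 at 14 hpa (15), 3.73 in 2-cell embryos (15), 3.33 at 4-cell, 2.9 at 8-cell, 3.2 in morulae, 3.27 in ICM, 3.61 in TE (16 each) and 3.03 in PN5 (14). Within its own list the median DMR peak stood between the 53.2 (8-cell) and the 84.1 percentile (14 hpa) of fold. The median width was 1978 bp in CCs, 1776 bp at 6 hpa, 1681 bp at 14 hpa, 2610, 2391 and 1582 bp in cleavage embryos, 3497 bp in morulae, 3664 bp in ICM, 4408 bp in TE and 1528 bp in PN5, where all peaks of a list had medians of 566 to 857 bp. The widest DMR peak was at Impact in TE and the next in that list, 7855 bp, at Gnas.

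The TGCCGC motif was found on either strand within 1 kb of 15 of the 16 leading DMR starts, all but Zrsr1, with a median of 5.5 copies and 12 at Mest. Among the leading starts of the 14299 other genes with a CpG-dense start, 8271 held it, with a median of 1. It occurred within 1 kb of the 5′ end of 28.6% of all genes. The DMR starts did not differ much in base composition, with a median GC of 53.4% and CpG ratio of 0.655 against 54.3% and 0.622. Among other CpG-dense genes the motif at the 5′ end did not go with a higher share marked in most lists, for example 4.33% with and 6.02% without it in morulae. The share was higher with the motif at 6 hpa (54.1% and 43.5%) and slightly higher at 14 hpa (14.4% and 13.5%) and in PN5 (20.9% and 20.6%). A match describes these letters in the window and is not a binding site.

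The 3 paternally methylated DMRs lie upstream and were followed in fixed windows, placed by their generally known distance to the gene, an assumption that was not checked against measured DMR coordinates. Upstream of H19, a noncoding RNA expressed from the maternal copy, the window from 1 to 5 kb (chr7:142579143-142583143) was covered to 67% in CCs, 53.7% at 6 hpa, 100% at 14 hpa and in 2-cell and 4-cell embryos, 30.8% in 8-cell embryos, 100% in morulae, ICM and TE, and 58.2% in PN5. It held a peak in each list. The window 8 to 18 kb upstream of Meg3 (chr12:109523001-109533001), placed to hold the intergenic DMR of the Dlk1-Dio3 cluster, had no peak in CCs. There it was 6.58% at 6 hpa, 30.7% at 14 hpa, 47%, 51.3% and 62.6% in 2-cell, 4-cell and 8-cell embryos, 76.5% in morulae, 64.8% in ICM, 65.4% in TE and 9.59% in PN5. Each SCNT stage up to the morula thus had a higher value than the stage before it.

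Upstream of Rasgrf1, a Ras exchange factor, the window from 25 to 35 kb (chr9:89874908-89884908) was covered to 24.2% in CCs, 21.8% at 6 hpa, 35.5% at 14 hpa, 55.2%, 48.9% and 61.1% in cleavage embryos, 50.6% in morulae, 30.4% in ICM, 56.3% in TE and 25.6% in PN5. Its peak stood out in fold in several lists, with 5.02-fold at 6 hpa (percentile 99.3 of that list), 4.41-fold at 4-cell (98.5) and 3.77-fold in PN5 (98.6). The windows are wider than the DMRs themselves, so their coverage is not comparable with that of the windows at starts.

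**Figure D4:**
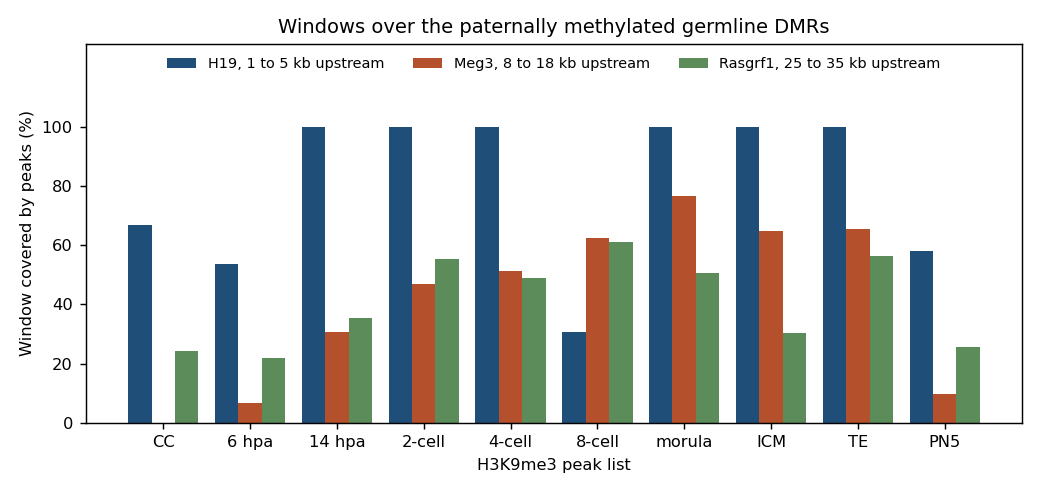
Percentage of the window over each of 3 paternally methylated germline DMRs covered by peaks (y axis) in each list (x axis); each bar is a single pooled list. The Meg3 bars go from 0 in CCs to 76.5% in morulae and are at 9.59% in PN5, while H19 and Rasgrf1 have a bar in each list.

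Starts in the H19 and Igf2 domain did not follow the window upstream of H19 in each list. In 2-cell embryos, morulae and TE, however, a single peak lay over both that window and the leading H19 start. In ICM the peak over that window reached into the 1 kb upstream of this start without covering the start itself. For H19 itself the most covered start was at 0 in CCs and 6 hpa, 47.6% at 14 hpa, 65.2% at 2-cell, 100% at 4-cell, 54.9% at 8-cell, 69.5% in morulae, 44.4% in ICM, 83.4% in TE and 0 in PN5. Igf2, the fetal growth factor expressed from the paternal copy, was at 0 in CCs, 100% at 6 hpa, 51.7% at 14 hpa, 100% in 2-cell, 4-cell and 8-cell embryos alike, 0 in morulae, ICM and TE, and 100% in PN5. The covered Igf2 start was not the same throughout: at 6 hpa it was the CpG-dense start at chr7:142659489, and in 4-cell and 8-cell embryos, where that start had no coverage, it was the upstream start at chr7:142666816. Both starts were covered in PN5, to 100% and 92.4%.

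In the Kcnq1ot1 domain the 3 neighbours examined were covered at 6 hpa and at 0 from the 8-cell stage to ICM. Cdkn1c, which encodes the cell cycle inhibitor p57, was covered to 100% in CCs, at 6 hpa, at 14 hpa and in 2-cell embryos, 12.5% at 4-cell, 0 at 8-cell, in morulae and in ICM, 40.7% in TE and 0 in PN5. Phlda2, a brake on placental growth, had 8.8% in CCs, 99.6% at 6 hpa and 0 in the other 8 lists. Kcnq1, a potassium channel, had 76.7% at 6 hpa and 0 elsewhere. In the Igf2r and Airn domain Igf2r, the receptor that clears Igf2, had 7.95% in CCs, 76% at 6 hpa, 0 at 14 hpa, 35.4%, 0 and 8.4% in cleavage embryos, 0 in morulae, 10.3% in ICM, 41.7% in TE and 19.9% in PN5, and Slc22a3, an organic cation transporter, had 82% at 6 hpa, 11.4% at 4-cell and 0 elsewhere.

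The Dlk1-Dio3 cluster on chromosome 12 was mixed. Dlk1, a Notch-like membrane protein of the paternal copy, had 90.8% at 6 hpa and 0 in the other 9 lists. Dio3, a deiodinase that inactivates thyroid hormone, had 15.4% in CCs, 100% at 6 hpa, 29.6% at 14 hpa, 43.1%, 49.6% and 0 in cleavage embryos, 0 in morulae and ICM, 9.05% in TE and 0 in PN5. The noncoding RNA Meg3 had 100% in CCs, 87.9% at 6 hpa, 94.8% at 14 hpa, 54.3%, 25.3% and 0 in cleavage embryos, 0 in morulae, 21.8% in ICM, 50.7% in TE and 30.5% in PN5. From 14 hpa to the morula the values at the Meg3 starts went down or stayed at 0 while those of the upstream window went up. Mirg, a host of many miRNAs, had 0 in CCs, 72.1% at 6 hpa, 44.1% at 14 hpa, 83.7%, 38.1% and 39.5% in cleavage embryos, 100% in morulae, 13% in ICM, 34.3% in TE and 38.7% in PN5. Rian, which hosts small nucleolar RNAs, had 26.5% at 4-cell, 7.1% at 8-cell and 0 elsewhere. Rtl1, a placental gene derived from a retrotransposon and read in antisense by its own miRNA host, had no peak at its start in any list, though 48.2% of its body was covered in PN5.

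**Figure D5:**
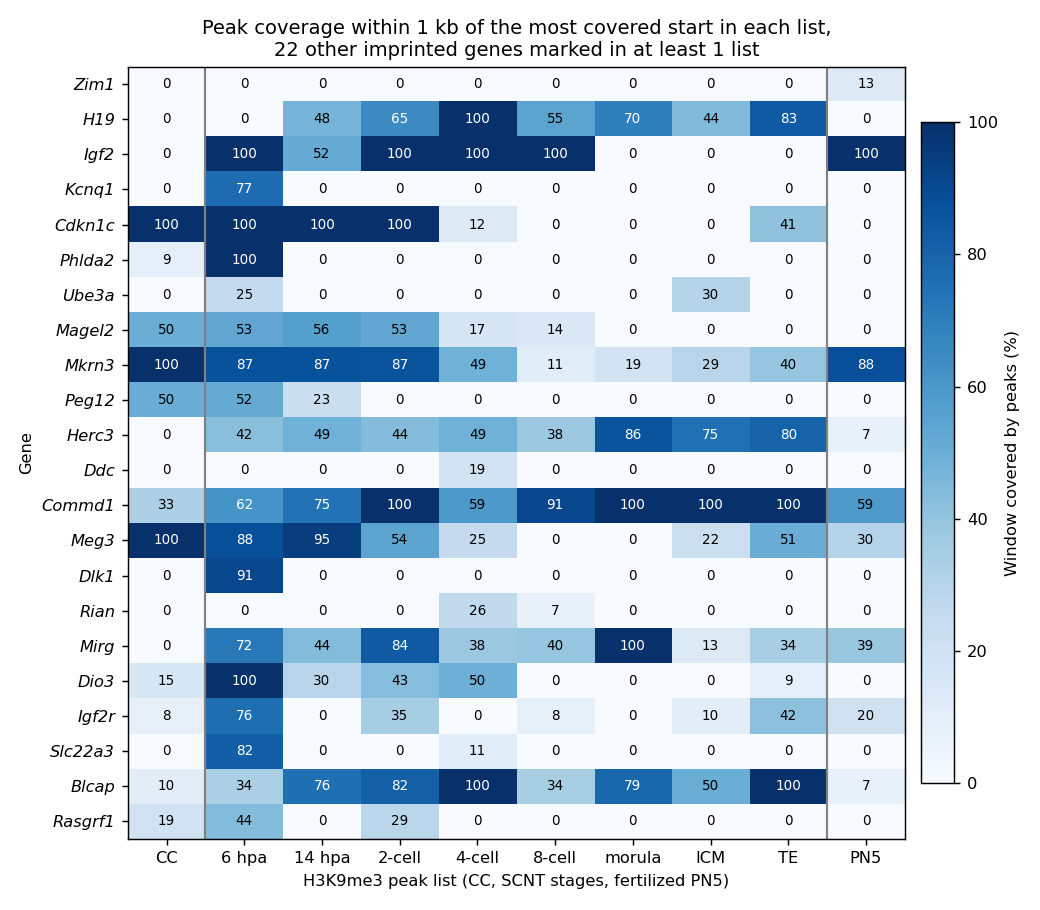
Percentage of the 1 kb either side of the most covered start in each list (colour and printed number, rounded) for the 22 imprinted genes without a maternally methylated DMR start that were marked in at least 1 list (rows) in CCs, 8 SCNT lists and PN5 (columns, parted by grey lines). The 6 hpa column is at 72.1% or above for 11 genes, and Commd1, Blcap and Herc3 follow the DMR that they share.

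In the cluster of Snrpn and Ube3a, single-exon genes of the paternal copy near its end carried H3K9me3 over the gene. Mkrn3, a RING finger protein, had 100% of its start window covered in CCs, 86.9% at 6 hpa, 87.1% at 14 hpa, 86.6%, 48.8% and 11.4% in cleavage embryos, 18.7% in morulae, 29.4% in ICM, 39.8% in TE and 87.9% in PN5, and at 14 hpa its peak had a fold of 5.88 (percentile 99.9). Magel2, a MAGE family gene, had 50.1% in CCs, 53.2% at 6 hpa, 56.4% at 14 hpa, 53.1%, 16.6% and 14.5% in cleavage embryos and 0 in morulae, ICM, TE and PN5. Its gene body was covered to 86.3% in CCs, 82.8% at 6 hpa, 89.6% at 14 hpa, 70.2%, 65.6% and 49.5% in cleavage embryos, 0 in morulae, ICM and TE, and 17.1% in PN5. Peg12 had 50.5% at its start in CCs, 51.7% at 6 hpa, 22.6% at 14 hpa and 0 in the other 7 lists. Ndn, another MAGE family gene, had no peak at its start in any list, and 51.4% of its body was covered in CCs, 35.9% at 6 hpa, 11.2% at 4-cell and 10.2% in ICM. Ube3a, the ubiquitin ligase of Angelman syndrome, had 25.4% at 6 hpa, 30.4% in ICM and 0 elsewhere.

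Of the remaining neighbours, Rasgrf1 had 19.2% at its start in CCs, 43.8% at 6 hpa, 28.7% at 2-cell and 0 in the other 7 lists. Ddc, the decarboxylase beside Grb10, had 19% at 4-cell alone, and Zim1, a zinc finger gene beside Peg3, 12.6% in PN5 alone. Commd1, Blcap and Herc3, which lie under the DMR peaks of Zrsr1, Nnat and Nap1l5 and were marked in 10, 10 and 9 lists, had 32.7%, 10.2% and 0 in CCs, 100%, 79.1% and 86% in morulae, and 58.9%, 7.2% and 7.4% in PN5. Of the 45 genes, 5 were unmarked in all lists: Ndn, Copg2, Rtl1, Trappc9 and H13. Copg2, Trappc9 and H13, hosts or neighbours of the Mest, Peg13 and Mcts2 DMRs, had 0% of any start window covered in all 10 lists.

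Read between consecutive lists, the imprinted genes were shared to a larger extent than genes at large. A gene counted as shared if any start was marked in each list, even a different start. Imprinted genes have more annotated starts, with a median of 5 against 1, and shares among genes with as many starts were not computed. All 23 genes marked in CCs were also marked at 6 hpa (100%), against 67.3% of the 9397 genes marked in CCs, and they made up 67.6% of the 34 marked at 6 hpa, against 37.7% for all genes. The 11 marked at 6 hpa and not in CCs were Igf2, Kcnq1ot1, Kcnq1, Ube3a, Magel2, Nap1l5, Herc3, Dlk1, Mirg, Plagl1 and Slc22a3, of which 3 start at a maternally methylated DMR. From 6 hpa to 14 hpa 27 of 34 were shared (79.4%), against 41.8% of all genes, and Kcnq1, Phlda2, Ube3a, Dlk1, Igf2r, Slc22a3 and Rasgrf1 were marked at 6 hpa only, none of them with a DMR at a start. The shares were 96.6% from 14 hpa to 2-cell (55.9% of all genes), 83.3% to 4-cell (62.8%), 78.6% to 8-cell (72%) and 91.7% to the morula (60.3%). From the morula, 23 of 24 were also marked in ICM (95.8%, against 56.2% of all genes) and 24 of 24 in TE (100%, against 56.1%). Genes with a DMR start were shared to between 93.8% and 100% in each of these steps. Those without were shared to 58.3% from 4-cell to 8-cell, below all genes (72%), and to 69.2% from 2-cell to 4-cell (62.8%). In the other steps they too stood above all genes. H19, Cdkn1c, Dio3 and Igf2r were marked in TE and not in ICM, while Ube3a was the reverse.

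Against the fertilized zygote, 21 of the 29 genes marked at 14 hpa were also marked in PN5 (72.4%), which is 87.5% of the 24 marked in PN5, with 36.3% and 41.4% for all genes. H19, Cdkn1c, Magel2, Peg12, Peg10, Sgce, Dio3 and Peg13 were marked at 14 hpa and not in PN5, and Zim1, Igf2r and Mcts2 the reverse. From 6 hpa to PN5 the shares were 61.8% and 87.5% (26.9% and 52.5% for all genes), and from CC to PN5 65.2% and 62.5% (26.3% and 28.7%). PN5 was also the shortest list in covered length, and the lowest −log10 q among its peaks was 1.30, against 1.31 to 1.52 in the other lists.

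Over gene bodies most imprinted genes held a peak somewhere, from 34 of 45 in morulae to 43 at 6 hpa, where 30.3% and 42.1% of all genes did. The median coverage of their bodies was 3.93% in CCs to 8.92% in TE, against 0 over all genes in each list. In pooled length, where long genes weigh most, the values lay nearer to each other, with the widest gap in TE. Peaks covered 6.59% of their pooled length in CCs, 5.81% at 6 hpa, 6.06% at 14 hpa, 4.94%, 5.57% and 6.1% in cleavage embryos, 6.23% in morulae, 6.41% in ICM, 7.03% in TE and 5.51% in PN5, where all genes had 6.37%, 4.93%, 6.32%, 3.89%, 5.04%, 5.5%, 5.53%, 4.47%, 4.26% and 4.94%. At least 50% of the body was covered in 2 (PN5) to 6 (6 hpa) of the 45 genes, against 3.96% and 7.8% of all genes. The counts in PN5, in CCs (4, against 8.72%), at 14 hpa (3, against 8.29%) and in 8-cell embryos (3, against 6.03%) lay near the share of all genes. In TE 5 genes stood against 4.13%. Short genes made up these cases, such as Cdkn1c (93.6% in CCs, 100% at 2-cell, 0 in morulae), Mcts2 (100% at 8-cell, ICM and TE), Nnat (85.1% at 4-cell, 100% in TE) and H19 (91.8% at 4-cell).

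Whole domains had their own levels. The 3.24-Mb domain from Ube3a to Peg12 was covered to 35.6% in CCs, 12.9% at 6 hpa and 20.3% at 14 hpa, against 21.2%, 11% and 15.9% of chromosome 7, and to 9.76% to 14.8% from the 2-cell stage to TE. The Dlk1-Dio3 domain was at 6.21% in CCs and 9.47% at 6 hpa, below and above chromosome 12 (12.3% and 6.9%), at 23.2% in 4-cell and 8-cell embryos (7.24% and 7.61%) and at 10.3% in PN5 (5.36%). The H19-Igf2 domain had 4.46% in CCs, 27.2% at 4-cell, 27% at 8-cell and 6.69% in ICM, and Igf2r-Airn 9.06%, 19.2%, 17.6% and 10.8%. These 3 domains thus had their highest coverage at the 4-cell or 8-cell stage. The Kcnq1ot1 domain stayed between 2.05% (PN5) and 7.43% (CC), below chromosome 7 in each list.

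In a list of 20 further imprinted genes, marked genes numbered 4 in CCs, 13 at 6 hpa, 5 at 14 hpa, 3, 4 and 3 in cleavage embryos, 2 in morulae and in ICM, 1 in TE and 5 in PN5. As shares, these were 20% in CCs, 65% at 6 hpa, 25% at 14 hpa, 10% in morulae, 5% in TE and 25% in PN5, against 17%, 30.3%, 17.7%, 14.6%, 12.2% and 15.5% of all genes, and 50.1% of CpG-dense genes at 6 hpa, so most lay near the background. Nespas, the antisense RNA of the Gnas locus, which shares the DMR of Gnas, was marked in all 10 lists, with coverage between 53.2% (CC) and 100%. Zfp264 and Zim3, neighbours of Peg3, had 100% each in CCs and 15.9% and 0 in morulae. Ascl2, a regulator of the placenta, had 100% at 6 hpa and 46.7% in PN5, and Klf14 47.2% in CCs and 58.1% at 14 hpa. Marked in 1 to 3 lists were Zdbf2, Calcr, Ppp1r9a, Pon2, Pon3, Tssc4, Cd81, Osbpl5, Nap1l4, Atp10a, Slc22a2 and Ampd3. Asb4, Tfpi2 and Slc22a18 were unmarked in all lists.

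Of 14 genes whose products maintain imprints or H3K9me3, 3 were marked at a start in CCs, 9 at 6 hpa, 5 at 14 hpa, 5 in 2-cell embryos, 0 in 4-cell and 8-cell embryos and in morulae, 1 in ICM, 1 in TE and 4 in PN5. The shares were 21.4% in CCs, 64.3% at 6 hpa, 35.7% at 14 hpa and 28.6% in PN5, against 12.4%, 50.1%, 14.2% and 20.8% of genes with a CpG-dense start, and the exact 95% interval held that background in CCs (4.66% to 50.8%), at 6 hpa (35.1% to 87.2%), at 14 hpa (12.8% to 64.9%) and in PN5 (8.39% to 58.1%). In 2-cell embryos the share was 35.7% (12.8% to 64.9%). That interval lay above the 10.9% of genes with a CpG-dense start and held the 14.1% of all genes. For 0 of 14 the exact 95% interval reaches 23.2%. In 4-cell and 8-cell embryos and morulae 6.98%, 6.3% and 5.09% of genes with a CpG-dense start were marked. The share of 7.14% in ICM and in TE stood against 6.58% and 7.27% of CpG-dense genes. Zfp445, which acts at imprinted DMRs, had 81.5% in CCs, 49.6% at 6 hpa and 100% in ICM and TE. Dnmt1, the maintenance DNA methyltransferase, had 14.4% at 6 hpa, 69.2% at 14 hpa and 100% in PN5, and Trim28 12.1% at 6 hpa, 19.6% at 14 hpa and 49.4% in PN5. Suv39h1, a writer of H3K9me3, had 78.8% in CCs, 40.3% at 6 hpa, 54.2% at 14 hpa and 67.3% at 2-cell. Zfp57 had 31.2% in PN5 alone, and Uhrf1, Dppa3, Cbx3, Cbx5, Suv39h2, Arid4a and Arid4b were covered to 27% or less. Setdb1 and Cbx1 were unmarked in all lists.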

How the data were processed

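The data were 10 deposited H3K9me3 peak lists, 1 for each group of libraries, in broadPeak format. The authors trimmed reads with Cutadapt (1.16 in the submitters' processing notes), aligned them to mm10 with BWA, merged the alignments of a group with SAMtools, removed duplicates and drew an equal number of reads per group with Picard, and ran MACS2 in broad mode against input. The threshold is not given in the sources used here. Each deposited peak has a fold enrichment, a ratio over input that the authors' caller averaged over the peak, a −log10 q and, as deposited, a score of 10 times the −log10 q. Read counts per library and the −log10 p were not used. In broad mode the fold of a wide peak is an average over its length, and a list depends on the signal-to-noise ratio of its pooled libraries.

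Of the peaks, 23 on the mitochondrial genome were set aside, and merged peaks were intersected with genes and with 1 kb either side of each start (Python 3.11.15, numpy 2.4.6, scipy 1.17.1, matplotlib 3.10.9). Coordinates are 1-based. Intervals are exact (Clopper-Pearson, 95%), cover counting error over genes only, and neighbouring genes are not independent. The interval code was tested on simulated data. Genes with a DMR were named with values in every list, other members with values where marked in at least 1 list, and non-members only from fixed lists. The members and lists were chosen with earlier results of these data known. Alternatives were another rule for a marked start, −log10 q of at least 2, lists trimmed by −log10 q to the covered length of the shortest, only the 5′ end, 500 bases either side and other backgrounds. The background of genes with at least 5 starts was added after seeing the data.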

Additional observations from a re-analysis of the deposited data

How the results depend on the processing

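Counts of marked genes were recomputed under 5 alternatives. With only the peaks whose −log10 q reached 2, and with 500 bases on either side of a start, no count for the 45 genes or for the 18 with a DMR start moved by over 1.5 times. With merged peaks covering at least 50% of the window, 14 of the 45 were marked in CC, 18 in 4-cell embryos and 14 in PN5. Under that rule 9.18%, 6.16% and 6.37% of all genes were marked in the same lists. With lists trimmed to the shortest, CC gave 11 of 45 and 7 of 18, where 7.66% of all genes were marked. Genes marked in both lists were then 11 for CC and 6 hpa and 7 for CC and 14 hpa. With only the 5′ end of the gene, which is often not the DMR start, the 45 genes gave 15 in CC, 22 at 6 hpa, 19 at 14 hpa, 16 in 4-cell and 12 in 8-cell embryos, 14 in the morula, 14 in ICM and 11 in PN5, and the 18 genes gave 7 in CC, 10 at 6 hpa, 11 in 2-cell, 10 in 4-cell and 10 in 8-cell embryos, 11 in the morula and 8 in PN5. By the 5′ end alone, the share of all genes marked was 14.9% (CC), 26.7% (6 hpa), 15.3% (14 hpa) and 12.4% (2-cell). It was 12.3% (4-cell), 14.2% (8-cell), 12.4% (morula), 9.86% (ICM) and 11% (PN5). No paired analysis was possible because each group has a single list made from pooled libraries. For the same reason, leaving out a replicate could not be tried. Depth of single libraries is unknown here, and a single deviant library cannot be seen.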
